A study of Mus musculus with 2 samples.

Results

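Transcripts of 10 genes that damp MAP kinase signalling were followed in LPS-activated dendritic cells with and without the microRNA miR-155. They are the dual-specificity phosphatases Dusp1, Dusp2, Dusp4, Dusp5, Dusp6, Dusp10 and Dusp16, the Sprouty genes Spry1 and Spry2, and Spred1. They were taken as every probe set that the platform annotation assigns to exactly 1 of these genes, which gave 20 probe sets for 10 genes among the 45101 probe sets and 18193 named genes of the array. The set was put together with results of these arrays known, Dusp5 above all for its large difference, so the differences between the arrays are given as a description and none is tested.

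The study compared 2 samples of bone marrow cells from C57BL/6J mice, labelled wild type + LPS and miR155-/- + LPS. GM-CSF, a growth factor that turns marrow precursors into dendritic cells, was present at 20 ng/ml for 7 days, after which both cultures received 10 ng/ml of lipopolysaccharide (LPS), the bacterial cell wall component that activates Toll-like receptor 4. Each sample was measured on 1 Affymetrix array from 6 ug of total RNA. No array of untreated cells was analysed here, so these data do not show how any of these genes responded to LPS. The sources used here give neither the time in LPS nor the number of mice per sample.

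MAP kinases are switched on by phosphorylation of a threonine and a tyrosine, and dual-specificity phosphatases switch them off by removing both phosphates. Several of these phosphatases are themselves transcribed in response to MAP kinase activity, which makes them negative feedback regulators. Dusp5 resides in the nucleus and acts on ERK, Dusp6 acts on ERK in the cytoplasm, Dusp1, Dusp2 and Dusp4 are nuclear and act on ERK, p38 or JNK to varying degrees, and Dusp10 and Dusp16 act mainly on p38 and JNK. Sprouty and Spred proteins act further upstream and restrain the activation of RAS and RAF. In macrophages and dendritic cells LPS activates ERK, p38 and JNK, and Dusp1 is a well-known brake on their cytokine production.

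The microRNA that the knockout cells lack is shown with its seed, bases 2 to 8, in capitals. The promoters of Dusp5 and Dusp1 are also shown. Each held a motif that no other promoter found for these genes held, as did that of Dusp2, which is not shown. Promoters run from 250 bases before to 50 bases after the gene's start. In Dusp5 the capitals mark CArG boxes, the elements bound by serum response factor, and in Dusp1 a full cyclic AMP response element (TGACGTCA). All sequences are from RefSeq (GRCm38.p6), on the strand of the gene: miR-155-5p at chr16:84714143-84714165 (+), Dusp5 at chr19:53528895-53529194 (+) and Dusp1 at chr17:26508423-26508722 (-).
mmu-miR-155-5p: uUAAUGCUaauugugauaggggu
Dusp5 promoter: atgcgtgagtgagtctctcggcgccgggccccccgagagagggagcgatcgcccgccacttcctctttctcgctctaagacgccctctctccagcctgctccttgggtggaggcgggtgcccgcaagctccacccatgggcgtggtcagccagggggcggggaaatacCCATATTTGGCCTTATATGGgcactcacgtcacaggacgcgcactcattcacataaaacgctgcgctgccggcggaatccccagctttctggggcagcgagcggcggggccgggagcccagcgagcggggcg
Dusp1 promoter: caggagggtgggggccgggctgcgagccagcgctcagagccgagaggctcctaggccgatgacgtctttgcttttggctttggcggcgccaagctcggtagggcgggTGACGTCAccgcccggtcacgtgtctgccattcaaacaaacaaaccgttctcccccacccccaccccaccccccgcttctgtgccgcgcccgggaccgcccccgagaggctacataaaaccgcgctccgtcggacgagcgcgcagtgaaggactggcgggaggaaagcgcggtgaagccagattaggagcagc

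Signals are intensities after quantile normalization, which gives both arrays the same distribution. A difference is the log2 signal of the knockout minus that of the wild type. The floor is the median of all normalized values (67.6), a gene above it on either array is called measured, and if the remaining array is below it the difference is a bound, written "at least". The floor is not a detection call. This left 11878 measured genes with a median difference of 0.01, and 10355 of them exceeded the floor on both arrays. With 1 array per genotype no spread between replicates exists, no p-value was computed, and the number of arrays limits the precision. The error available is the SD between probe sets of the same gene, 0.29 on the log2 scale (11653 probe sets of 4410 genes), which holds no variation between mice or cultures.

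The deposited values differed in overall signal between the arrays, with a median intensity of 58.4 for wild type and 78.3 for knockout. The transcript that hosts miR-155, Mir155hg, read 1136 on the wild-type and 159 on the knockout array, in the direction of the labels, and the sources used here do not say whether the probe set falls inside the deletion. Of 10 dendritic cell markers 9 lay above the floor on both arrays, among them Itgax and Zbtb46, and their signals summed to 28516 in wild type and 26550 in knockout. The 6 macrophage markers that had a probe set were also above the floor on both arrays (summed signal 24646 and 27791), and the growth protocol in the labels calls the cells macrophages. Single markers differed more than these sums. Of the 6 macrophage markers 5 were higher in knockout cells, where 51.5% of all measured genes were. Mrc1 was 2.08-fold higher (138 against 288) and Mertk 1.75-fold higher (318 against 558). Of the dendritic cell markers 6 were lower and 4 higher, from -0.55 for Ccr7 to 0.40 for Cd209a. Among them Flt3 was above the floor in knockout only and so could count only as higher. The 18S ribosomal RNA controls had deposited signals of 95.1 to 126.1 for wild type and 389.2 to 581.9 for knockout, whereas the 3' to 5' ratio of the Actb controls was 1.28 and 1.25. The part of these differences between the preparations in the results below was not tested.

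Among the 10 brake genes, Dusp5 was the only one at least 1.5-fold lower in knockout cells, and none was at least 1.5-fold higher. Across all measured genes 4.1% were at least 1.5-fold lower and 4.57% at least 1.5-fold higher, shares from which nothing is read here because the genes were chosen on this contrast. The other 9 genes had differences between -0.43 and 0.40. By the sign of the difference 7 genes were lower and 3 higher, where 48.5% of all measured genes had a difference below 0 and 51.5% one above 0. Of the genes counted as lower, Dusp10 was above the floor in wild type only and so could count only as lower. Dusp6 differed by just -0.04, and Dusp16 had a second probe set at 0.42. The median over the 10 genes was -0.25, against 0.01 for all measured genes. It turned to 0.24 on the deposited values, where the median of all measured genes was 0.54. With averaged probe sets, where 9 of the genes were measured, it was -0.04, against 0.01 for all measured genes. With hybridisation controls it was -0.09, against 0.23. All 10 genes passed the filter on low signal, 9 of them on both arrays, and 16 of their 20 probe sets did.

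**Figure D1:**
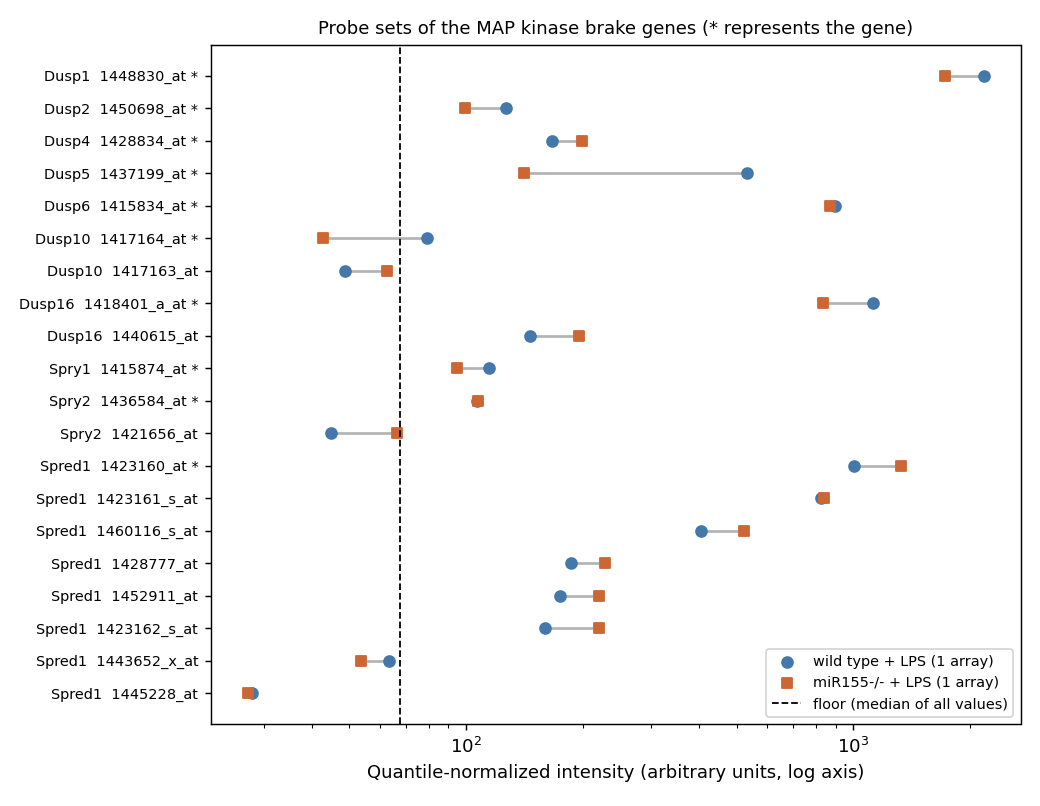
Quantile-normalized intensity (log axis) of all 20 probe sets of the 10 brake genes, with wild type as circles, knockout as squares, 1 array each, and the floor of 67.6 as a dashed line. The pair of Dusp5 points (533 and 142) is the widest apart of those above the floor on both arrays, and the 6 Spred1 probe sets above the floor have the knockout to the right.

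Dusp5, the ERK phosphatase of the nucleus, had a normalized signal of 533 in the wild type and 142 in the knockout. The knockout was 3.76-fold lower, a difference of -1.91. Both signals lay above the floor. The gene has 1 probe set on the array (1437199_at), so no second probe set could be set beside this value. The deposited intensities were 432.0 and 169.2, a ratio of 0.392. Thus the knockout array was the dimmer one for Dusp5 in the deposited values, although 79.7% of probe sets that name 1 gene were brighter on it. Dusp5 held rank 5 from the lowest difference among the 11878 measured genes. The bulk RNA does not tell fewer cells that transcribe Dusp5 apart from less Dusp5 RNA per cell.

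The genes nearest to Dusp5 in difference, among those above the floor on both arrays, were Mrpl39 (a mitochondrial ribosomal protein gene next to Mir155hg in chromosomal order, -2.05), Jchain (the immunoglobulin joining chain, -2.24) and Ighm (the IgM heavy chain, -2.37) on the lower side. Of Ighm's 8 measured probe sets 3 were higher in knockout cells. On the other side they were Slc1a2 (a glutamate transporter gene, -1.61), Kctd14 (-1.39) and Krtap12-1 (-1.39). Likeness here is the gap in this 1 difference between 2 arrays, and it ranges from 0.14 for Mrpl39 to 0.52 for Krtap12-1.

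**Figure D2:**
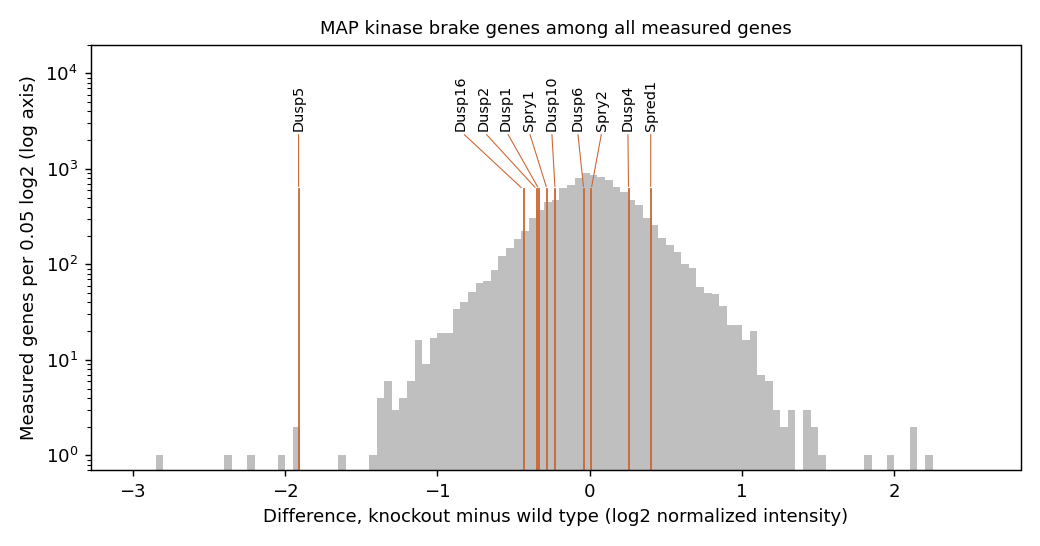
Histogram of the knockout minus wild-type difference (log2 normalized intensity) of all 11878 measured genes, with a log count axis and lines for the 10 brake genes. Dusp5 (-1.91) lies in the sparse lower tail, and the other 9 lie between -0.43 and 0.40 in the body of the distribution.

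Transcripts of other cell types also differed between these cultures. Of 8 B and plasma cell markers, 7 had a probe set and 5 were measured, and all 5 were lower in knockout cells, with sums of 1621 for wild type and 366 for knockout. Of these 5, 2 were above the floor on both arrays, and the other 3 were above it in wild type only and so could count only as lower. The sum takes Ighm at its representative probe set. The defining markers Cd79a and Pax5 lay below the floor on both arrays. All 5 measured mast cell and basophil markers of 6 were lower as well, with summed signals of 3163 and 1630, and Fcer1a lay below the floor on both arrays. Again 2 exceeded the floor on both arrays, Hdc and Kit. Hdc made up most of the sums (2624 and 1411), and Kit was nearly equal (134 and 130, a difference of -0.05). Mcpt8, Cpa3 and Ms4a2 were above the floor in wild type only and so could count only as lower. Granulocyte markers were lower in 6 of 7 measured genes of 8, yet their signals summed to 5688 for wild type and 6936 for knockout, with S100a8 at 4517 and 6093. Among them Ltf was above the floor in wild type only. Of 6 T and NK cell markers 2 were measured, Cd4 and Cd8a, both higher, and the summed signals were 201.5 and 253.8. Cd4 was above the floor in knockout only and so could count only as higher. The part of these other cells in the Dusp5 difference was not tested.

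The genes beside Dusp5 on chromosome 19 did not share its difference. Of the 5 measured genes on each side of it, 5 were lower and 5 higher, with a median difference of 0.00363, and all 10 were above the floor on both arrays. The lowest was Pdcd4, a translation inhibitor gene, at -0.09. On one side Smndc1 had a difference of -0.03, and on the other Smc3, a cohesin subunit gene, had one of 0.26 (186 against 223). Shoc2, a RAF-activating scaffold gene placed 4 measured genes away on that side, had the highest value, 0.64. These neighbours were chosen by order after the Dusp5 value was known.

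The Dusp5 promoter printed above held a pair of CArG boxes in tandem, CCATATTTGG and CCTTATATGG. They occupy bases 82 to 73 and 72 to 63 before the gene's start, directly next to each other. Across the 32851 promoters of the same length in the table, 1.63% held a CArG box on either strand and 6 promoters (0.0183%) held a second one. Of the 9 brake genes with a promoter in the table, Dusp5 alone held one. No entry was matched for Dusp4. None of the 9 held the AP-1 site TGANTCA or the ETS site CCGGAAG, which 7.81% and 8.86% of all promoters held on either strand. The EGR site GCGGGGGCG was found in Dusp2 alone, against 2.91% of all promoters. The motif search was added after the differences had been seen, and a match is only a run of letters.

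Srf, which encodes serum response factor itself, was the only other measured gene whose promoter held a pair of these boxes. The wild-type array gave it 289 and the knockout array 242, a difference of -0.25 that is smaller than the probe set SD of 0.29. Among 153 measured genes with at least 1 box in a listed promoter, 81 were lower and 72 higher, with a median difference of -0.02, and 9459 genes without one had a median of 0.01. At least 1.5-fold lower were 8 of the 153 (5.23%), Dusp5 among them, and at least 1.5-fold higher were 13 (8.50%), against 3.93% and 4.61% of the genes without a box. Egr2, an immediate early transcription factor gene with 1 box, was 1.73-fold higher in knockout cells, opposite in direction to Dusp5. Zfp36, which encodes the mRNA-destabilizing protein tristetraprolin and also has 1 box, had a difference of -0.02.

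Dusp6, the cytoplasmic counterpart of Dusp5 that also acts on ERK, had nearly equal signals of 896 in wild-type cells and 871 in cells without miR-155, a difference of -0.04. The sign of this small difference depended on the scaling: it was 0.14 with centring on the median, 0.23 with scaling on hybridisation controls and 0.56 as deposited. Set against the shift of the median gene in the same settings (0.14, 0.23 and 0.54), Dusp6 lay close to the median gene throughout. Dusp5 had differences of -1.78, -1.68 and -1.35 in those settings.

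Dusp1, the immediate early phosphatase that restrains p38 and JNK, had signals of 2169 in wild-type cells and 1725 in cells without miR-155. Its difference was -0.33, 1.26-fold lower, a little over the probe set SD, from 1 probe set. Its promoter held the cyclic AMP response element shown above, at bases 143 to 136 before the start, and 1.79% of all promoters held one on either strand. Dusp2, a nuclear phosphatase found mainly in activated leukocytes, lay closer to the floor, with signals of 126 and 99.6 and a difference of -0.34. On the deposited values the differences of Dusp1 and Dusp2 turned positive, to 0.27 and 0.15, both under the shift of 0.54 of the median gene.

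Dusp4, a nuclear phosphatase close in sequence to Dusp1, was slightly brighter in knockout cells, at 167 against 199, a difference of 0.25, which is less than the probe set SD. It was positive under all 7 alternatives that gave it a value, from 0.25 to 0.80. Removing the floor or changing the choice of probe set could not alter it, because Dusp4 has 1 probe set, above the floor on both arrays. Dusp4 and Dusp5, nuclear enzymes that both accept ERK, had differences of opposite sign here.

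Dusp16 and Dusp10, which act mainly on JNK and p38, gave no clear direction. The representative Dusp16 probe set (1418401_a_at) had signals of 1126 in wild type and 834 in knockout, a difference of -0.43, and the other one (1440615_at) had signals of 146 and 196, a difference of 0.42. With both averaged the difference was -0.01. Dusp10 was near the floor: one probe set (1417164_at) had signals of 79.2 and 42.8 and was at least 1.17-fold lower, and the other (1417163_at), at 48.6 and 62.5, lay below the floor on both arrays with the opposite order.

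The Sprouty genes lay close to the floor. Spry1 had signals of 115 in wild-type cells and 94.5 in cells without miR-155, a difference of -0.28, also less than that SD. Its difference was 0.21 as deposited, under the shift of the median gene. Spry2 had signals of 107 and 108 at the probe set used, a difference of 0.01, and its other probe set lay below the floor on both arrays, at 44.9 and 66.3.

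Spred1, which brings the RAS inhibitor neurofibromin to the membrane, was the highest of the 10 genes, and it is the one with the most probe sets. At the probe set used (1423160_at) the signal was 1006 in wild-type cells and 1327 in cells without miR-155, a difference of 0.40. Of its 8 probe sets 6 were above the floor on both arrays, and all 6 were higher in knockout cells, by 0.02 to 0.46, with a mean of 0.31 ± 0.15 (SD over 6 probe sets of 1 sample per genotype). They share the RNA and partly the transcript region, so they are not replicates. The other 2 lay below the floor on both arrays and had slightly lower knockout signals, 63.3 against 53.5 and 28.1 against 27.3. Under the 8 alternatives the difference of Spred1 ran from 0.20, with averaged probe sets, to 1.01, as deposited. In the deposited intensities all 8 were brighter on the knockout array, by ratios of 1.13 to 2.01. There 79.7% of all probe sets that name 1 gene were brighter on that array.

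The remaining Sprouty and Spred genes of the pathway list added little. Spred2, the close relative of Spred1, had signals of 459 in wild-type cells and 525 in cells without miR-155, a difference of 0.19, with 3 of 3 measured probe sets higher. Spry4 lay below the floor on both arrays at all of its 4 probe sets, one of them at 51.1 and 33.6, and so gives no direction.

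**Figure D3:**
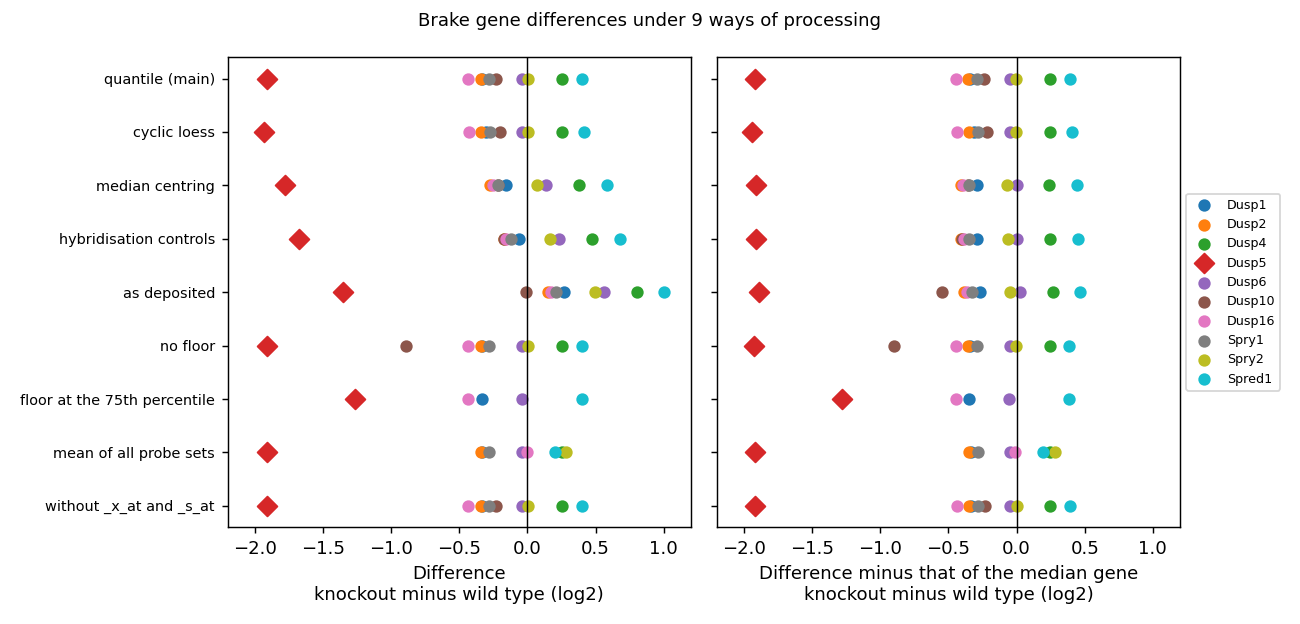
Differences of the 10 brake genes (log2, knockout minus wild type) under the main processing and 8 alternatives, as they are on the left and minus the difference of the median gene on the right, with Dusp5 as diamonds and genes without a value in a setting left out. Dusp5 stays at the far left throughout, between -1.93 and -1.27 in the left panel. There Dusp1, Dusp2, Dusp6, Dusp16 and Spry1 change sign with the scaling, whereas Dusp4, Dusp10, Spred1 and Spry2 keep theirs. The shifts with the scaling are smaller in the right panel, except for Dusp10.

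Other parts of the pathway were described from lists that, like the brake genes, were written with earlier results of these arrays known. None of their members with both arrays above the floor reached a 2-fold difference at the probe set used, and no lower bound did, where 0.615% of all measured genes were at least 2-fold lower and 0.572% at least 2-fold higher. Of 17 other dual-specificity phosphatases 13 were measured, 9 lower and 4 higher, with a median difference of -0.08, where 48.5% of all measured genes had a difference below 0. Of the 13, 9 exceeded the floor on both arrays. Dusp14, Dusp18 and Dusp26 exceeded it in wild type only and could count only as lower, and Dusp15 in knockout only and could count only as higher. Dusp23 (0.25), Dusp8 (-0.23) and Dusp11 (-0.23) differed most among those with both arrays above the floor, each by less than the probe set SD. Dusp18 and Dusp14, small phosphatases without the MAP kinase binding domain, were above the floor in wild type only. Dusp18 had signals of 134 and 25.6, at least 1.98-fold lower, and its other probe set lay below the floor on both arrays. Dusp14 had signals of 119 and 63.5, at least 1.76-fold lower.

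Upstream, 16 of 21 other Sprouty, Spred and RAS brake genes were measured. Of these 11 were higher and 5 lower, where 51.5% of all measured genes had a difference above 0. Their median was 0.11, and it became -0.01 with averaged probe sets. The RAS GTPase-activating protein gene Rasal3 was 1.64-fold higher (130 against 214), but its second probe set had a difference of 0.11. It was the only one past 1.5-fold, where 4.57% of all measured genes were at least 1.5-fold higher. Rasal2, of the same family, had a difference of 0.52 and Dok2, an adaptor gene that recruits RAS inhibitors, one of 0.50 (758 against 1074). Among 8 upstream receptor and adaptor genes, 5 were lower and 3 higher, where 48.5% of all measured genes were lower. The median of the 8 was -0.02. The LPS co-receptor Cd14 had a difference of -0.43, the GM-CSF receptor chain Csf2ra one of 0.31 and Ly96, the MD-2 subunit of the LPS receptor, one of -0.24.

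In the ERK cascade, from adaptors to ERK-activated kinases, 17 of 23 listed genes were measured, 9 lower and 8 higher, with a median of -0.01. By sign, 48.5% of all measured genes were lower. Rasgrp3 was above the floor in wild type only and so could count only as lower. Of the 17 genes 3 were at least 1.5-fold higher and none as much lower, where 4.57% of all measured genes were higher and 4.1% lower by that much. Rps6ka3, which encodes the ERK-activated kinase RSK2, went from 558 to 905 with 2 of 2 measured probe sets higher. Shoc2 went from 293 to 455 with 2 of 2 higher. Ksr1, a scaffold for RAF, MEK and ERK, had signals of 206 and 310 at its representative probe set, a difference of 0.59, but another of its probe sets had a difference of -0.79. In the p38 and JNK cascade 22 of 27 genes were measured, 10 lower and 12 higher, with a median of 0.04. By sign, 51.5% of all measured genes were higher. Mapk12 was above the floor in wild type only and so could count only as lower. Past 1.5-fold, 1 gene was lower and 0 higher, where 4.1% of all measured genes were lower and 4.57% higher by that much. Map3k1, a kinase upstream of JNK, had signals of 268 and 159 at its representative probe set, 1.68-fold lower, and its other probe set had a difference of 0.33. Rps6ka5 had a difference of 0.52 at 1 probe set and -0.02 at its other measured one, and Mapkapk3, a p38-activated kinase gene, had -0.43 and -0.24.

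Transcripts that ERK is known to induce were mixed. Of 31 listed genes 27 were measured, 17 lower and 10 higher, with a median of -0.04, where 48.5% of all measured genes had a difference below 0. Fosl1 and Lif were above the floor in knockout only and so could count only as higher. Past 1.5-fold, 2 members were higher and 0 lower, where 4.57% of all measured genes were higher and 4.1% lower by that much. Egr2 had signals of 1151 in wild-type cells and 1987 in cells without miR-155 at the probe set used, and its other probe set had a larger difference, 1.35. Myc lay close to the floor and was 1.58-fold higher (89.5 against 141). Egr1, an immediate early gene induced through ERK, had signals of 469 and 688, a difference of 0.55. Against these, Nr4a1 (-0.52), Junb (-0.49) and Ier2 (-0.42), which are likewise immediate early genes, had differences in the other direction, short of 1.5-fold. Fos, at 1174 and 988, had a difference of -0.25. Transcript levels do not measure the phosphorylation of ERK, and no such measurement was analysed here.

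**Figure D4:**
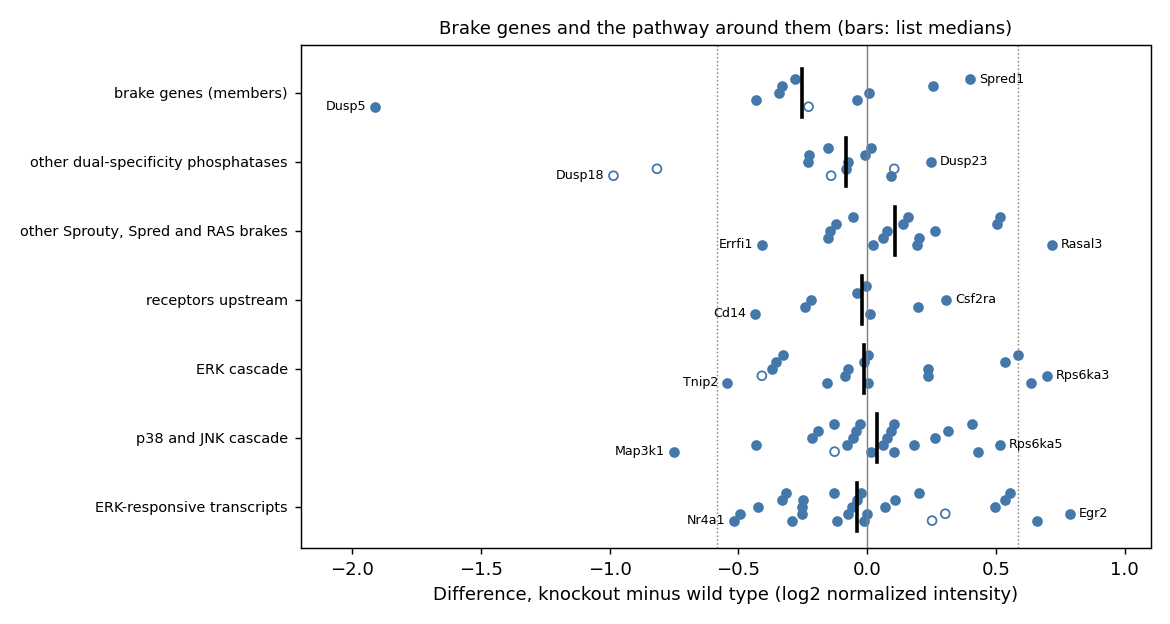
Difference of each measured gene (log2, knockout minus wild type) in the brake genes and 6 pathway lists, with filled circles for genes above the floor on both arrays, open circles for lower bounds, black bars for list medians and dotted lines at 1.5-fold. Dusp5 (-1.91) stands alone at the left, and the list medians lie between -0.25 and 0.11.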

How the data were processed

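Per the labels' protocols, biotin-labelled cRNA was hybridised to Affymetrix arrays. The authors deposited 1 table of linear signal intensity for 45101 probe sets on 2 arrays; the sources used here do not give how they were computed or scaled. After removal of 64 controls, log2 values of 45037 probe sets were quantile normalized (limma 3.58.1, R 4.3.3) and values below their median were set to it. The platform annotation named 1 gene for 34945 probe sets, and symbols were updated by gene identifier. The probe set with the highest mean represented a gene. The remaining steps ran in Python 3.11.15 and were tested on simulated data. Genes named were the members, in each list those past 1.5-fold and the 3 largest differences above the floor on both arrays, and the 3 nearest to Dusp5 on each side; Spred2, Spry4 and Mir155hg were fixed by name. Nr4a1, Junb, Ier2, Fos, Srf and Zfp36, the chromosomal neighbours and the promoter motifs were added after values were seen. Members and lists were chosen with earlier results of these data known. With 1 array per genotype no test was possible; the 8 alternatives concern scaling, the floor and the choice of probe set.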

Additional observations from a re-analysis of the deposited data

How the results depend on the processing

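Dusp5 was lower in knockout cells under all 8 alternatives. Removing the floor, averaging probe sets and leaving out _x_at and _s_at probe sets could not change its value and returned -1.91 again. Dusp5 has 1 probe set, of neither kind and above the floor on both arrays. Its difference was -1.35 on the deposited values, or -1.89 relative to the median gene, and -1.27 with a floor raised to the 75th percentile, a bound because the knockout signal then lies below it. Deposited values shift the median gene by 0.54, and there the median difference of the brake genes was 0.24, that of other dual-specificity phosphatases 0.38, that of other Sprouty, Spred and RAS brakes 0.67, that of the ERK cascade 0.58, that of the p38 and JNK cascade 0.62 and that of ERK-responsive transcripts 0.49. In that setting 2 brake genes were lower and 2 were at least 1.5-fold higher (Dusp4 and Spred1), against 7.14% and 43.5% of all measured genes. With hybridisation controls 1 was at least 1.5-fold higher (Spred1), against 12.2%. With no floor 2 were at least 1.5-fold lower, Dusp10 (-0.89) joining Dusp5, against 13.5%. With the floor at the 75th percentile 5 brake genes were measured and 4 of them were lower, against 47.2%. Dusp2, Dusp4, Dusp10, Spry1 and Spry2 had no value there, and Dusp10 had none with averaged probe sets. Of 80 comparisons of the main values with an alternative, 67 stayed within the probe set SD or within 1.5 times the count and 13 moved. The 67 include the Dusp5 values that could not differ. They also include list medians near 0, for which the SD between single probe sets is a wide limit. For example, the ERK cascade median was -0.01 in the main processing and counts as staying at 0.25 with hybridisation controls. It kept its sign under 3 of 8 alternatives. No paired analysis was possible because each genotype has 1 array. Signal over background limits Dusp2, Dusp10, Spry1 and Spry2, which lie close to the floor.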
